A study of Mus musculus with 6 samples.

Results

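ABC transporters are membrane proteins that bind and hydrolyse ATP to move a substrate across a membrane. The ABCC pumps and Abcg2 carry organic anions, conjugates and porphyrins out of the cell, whereas Abcb6, Abcb8 and Abcb10 belong to the group linked to porphyrin handling and to mitochondria. Erythroblasts make heme from porphyrins in large amounts, and several of these proteins are known from red cells or their precursors. The genes described here were Abcc1, Abcc3, Abcc4, Abcc5, Abcg2, Abcb6, Abcb8 and Abcb10, taken by the gene name that the array files give each probe. These 8 genes, of 34761 gene or transcript names on the array, were read by 13 of its 55681 non-control probes. The set was chosen by the genotype difference of Abcc3, which had already been seen in these arrays, and the other genes were placed around it as relatives with a known role. The genotype differences below are therefore a description, and none of them is independent support for anything.

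RNA came from sorted CD71highTer119+ BM erythroblasts of C57Bl/6 mice, with 3 mice of each genotype and 1 Agilent whole mouse genome array per mouse. The study used male and female mice, and the sex of these 6 is not given in the sources used here. Mice labelled P38hetero carried Mx1-Cre and 1 floxed P38α allele (Mx1-Cre/P38α fl/+, here P38α+/−), and mice labelled P38ko carried Mx1-Cre and a floxed allele on both chromosomes (Mx1-Cre/P38α fl/fl, here P38α−/−). Both genotypes were given PolyIC at 6 to 8 weeks of age (3 injections of 300 µg, every other day), then rested for 6 weeks, received 1 injection of phenylhydrazine (PHZ, 100 mg per kg), an oxidant that destroys red cells, and were sampled on day 4 of recovery. Mx1-Cre is driven by an interferon-inducible promoter and is not restricted to erythroid cells, and no array of a mouse without Cre, PolyIC or PHZ was among the 6. From each mouse 10 ng of total RNA was amplified.

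A probe is called detected on an array where the scanner software marked it as well above background. Each value is a log2 signal from which the 75th percentile of that array was subtracted, computed from the 15540 probes detected throughout, so a negative value is a signal below that percentile and not an absent one. Testing was restricted to probes detected in all 3 mice of one or both genotypes, which left 18785 probes of 14158 genes. A call needed an adjusted p of at most 0.05 in limma and a fold of at least 2. Detection ran at 53.1% of probes on P38α+/− replicate 1, at 28.9% on P38α−/− replicate 1 and at 35.1% to 38.2% on the other 4 arrays. On this scale the median difference over all tested probes, P38α−/− minus P38α+/−, was −0.16, and differences relative to that median are given where they matter. Mapk14, the gene of P38α, was not lower in the arrays labelled P38α−/−. Its brighter probe read 0.33, 0.58 and 0.61 in P38α+/− and 0.76, 1.19 and 1.20 in P38α−/− (adjusted p = 0.186, limma), and its other probe differed by 0.01. The files do not say which part of the gene was removed, so these probes cannot check the labels, and P38α−/− below stands for the arrays so labelled.

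The cells are labelled as erythroblasts, and markers of late erythroid cells were bright on every array. The mean level over the 6 late erythroid markers, globin Hba-a1 and the anion exchanger Slc4a1 among them, was 4.87 to 5.08 in P38α+/− and 4.77 to 5.07 in P38α−/−. For the 4 of 5 early erythroid markers that were tested the mean level was −2.57 to −1.50 in P38α+/− and −3.72 to −2.70 in P38α−/−. Of these, Cd34 and Kit, which stem and progenitor cells also carry, differed by −1.87 and −1.62 and Myb by −1.08, whereas the transferrin receptor Tfrc differed by −0.08. Kit alone did not overlap, and none of the 4 passed (adjusted p = 0.160 to 0.903, limma). Markers of other cells were also detected. The mean level over 9 neutrophil markers was 1.69 to 3.24 in P38α+/− and 0.74 to 1.24 in P38α−/−. Of the 9, 8 were lower in P38α−/− without overlap, against 19.7% of all genes, and none passed (adjusted p = 0.115 to 0.221, limma). For the 4 of 8 B cell markers that were tested the mean level was −5.07 to −2.43 in P38α+/− and −7.04 to −5.68 in P38α−/−. For the 7 of 9 monocyte or macrophage markers it was −4.55 to −3.01 and −5.88 to −3.56. For the 3 of 7 T or NK cell markers it was −2.40 to −1.41 and −2.65 to −2.33. For the 4 of 7 megakaryocyte or platelet markers it was −1.81 to −1.60 and −2.06 to −1.55, and 3 of these 4 exceeded the median probe. The B cell markers Ebf1 and Ms4a1 were detected in no P38α−/− mouse. They passed the detection filter only through P38α+/−, where they were higher. Cd34 and the macrophage marker Adgre1 were detected in 1 P38α−/− mouse each, and C1qa and C1qc in 2. The gaps between the means of lists with such markers are therefore not sizes of measured falls. The part of early erythroid and other cells in the values below was not tested, and in such bulk RNA fewer cells of a type and less RNA per cell cannot be told apart.

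Of the 13 probes, 11 were tested, and each of the 8 genes had at least 1 of them. Abcc3 was the only one of the 8 genes called, and it was higher in P38α−/−. Among all tested genes, 0.148% were called higher and 0.0424% lower. By the brightest probe of each gene, the arrays of the genotypes did not overlap for Abcc3 and Abcc4, both higher in P38α−/−, and for Abcb10, which was lower, against 7.44% of all genes higher and 19.7% lower without overlap. The median difference of the 8 genes was −0.06, which is 0.10 above the median of all tested probes. With the processing reported, the whole 95% interval of the difference lay within a 2-fold change in either direction for 8 of the 11 probes. The exceptions were Abcc3, Abcc4 and 1 probe of Abcc5. This count depends on the scale. After quantile normalization the difference was 1.00 for Abcc1 (standard error 0.57) and 0.72 for 1 probe of Abcb8 (standard error 0.40).

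**Figure D1:**
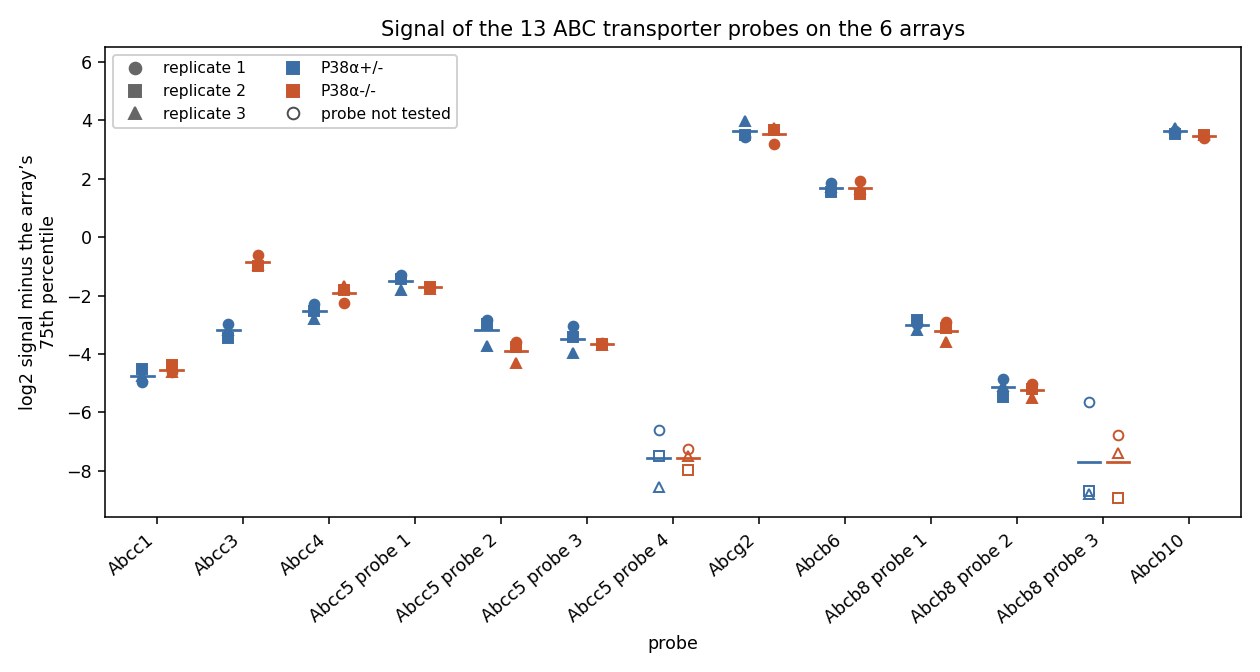
Signal of the 13 ABC transporter probes (x axis) on the 6 arrays, as log2 signal minus the array's 75th percentile (y axis), with 1 symbol per array, horizontal bars at the genotype means (n = 3) and open symbols for the 2 probes that were not tested. Abcc3 in P38α−/− lay between −0.97 and −0.62, above all P38α+/− arrays. Heights of different probes are not comparable, since each probe binds with its own strength.

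The probes of the efflux pumps that the results rest on are shown here, because a probe reads 1 stretch of a transcript and not the whole of it. Each is 60 bases long and is written in the orientation of the transcript. Abcc3 and Abcc4 have a stop codon in every forward reading frame of the probe and are shown by 30 bases each. In Abcc3 these are bases 30 to 59, with the letters of the polyadenylation signal in capitals, and in Abcc4 they are bases 1 to 30. Probe 1 of Abcc5, the brightest of that gene and the one behind its value in the gene lists, is also shown by its bases 1 to 30. The letters AATAAA occur, on the probe strand, in 10.1% of all probes of the array, and their presence is a description only.
Abcc3 (NM_029600): gtccactgatgaAATAAAgctgtagtcaac
Abcc4 (NM_001033336): gccagtaaatgatgtagattcgtcctttat
Abcc1 (NM_008576): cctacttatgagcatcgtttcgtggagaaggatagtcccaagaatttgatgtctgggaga
Abcc5 probe 1 (NM_013790): gtagaagttttttgtactgtaaagagacct
Abcc5 probe 2 (NM_013790): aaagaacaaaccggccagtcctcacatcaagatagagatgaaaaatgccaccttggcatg
Abcc5 probe 3 (NM_176839): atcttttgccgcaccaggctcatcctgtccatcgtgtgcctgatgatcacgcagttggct

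Abcc3 exports organic anions such as bile acids and glucuronide conjugates and is best known from liver and gut. Its single probe lies at chr11:94204612-94204671 of mm9, on the minus strand. Abcc3 read −2.98, −3.44 and −3.17 in P38α+/− replicates 1 to 3 and −0.62, −0.97 and −0.94 in P38α−/− replicates 1 to 3. All P38α−/− arrays were above all P38α+/− arrays, and the gap between the genotypes was several times wider than the spread within either. The means were −3.19 ± 0.23 (SD, n = 3) and −0.85 ± 0.19 (SD, n = 3), a log2 difference of 2.35 (standard error 0.19, 5.10-fold, 95% interval 1.89 to 2.81). Relative to the median probe Abcc3 was 2.51 higher. In limma's fit over all probes it had an adjusted p of 0.0199 and was number 9 of 18785 by p. Between arrays of the same replicate number the difference was 2.35, 2.47 and 2.23, so each of the 3 pairs showed it at nearly the same size. The probe was detected in all 6 mice.

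The size of the Abcc3 difference held better than its call. It ranged from 1.87 to 2.83 over 18 other ways of processing the arrays and was positive in all of them, but its adjusted p was above 0.05 in 10. The adjusted p rose to 0.0541 without P38α+/− replicate 1, 0.155 without P38α+/− replicate 2, 0.087 without P38α−/− replicate 1, 0.105 without P38α−/− replicate 2 and 0.159 without P38α−/− replicate 3. The last of these was alone on its slide, and with the slide as a block the difference was 2.40 (adjusted p = 0.157, limma).

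**Figure D2:**
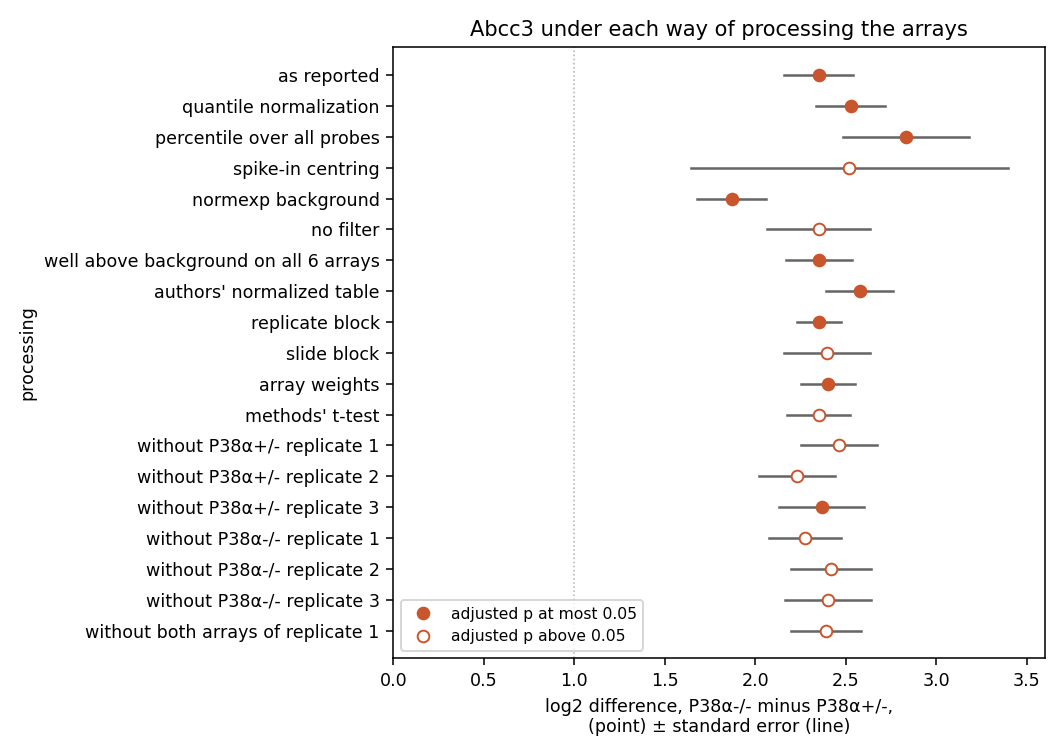
Log2 difference of Abcc3, P38α−/− minus P38α+/− (x axis), under the processing reported and 18 alternatives (y axis). Points are the differences, lines reach 1 standard error to each side, filled points have an adjusted p of at most 0.05, and the dotted line marks a 2-fold difference. All points lie between 1.87 and 2.83, and 10 of the 18 alternatives have open points.

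Abcc4 exports cyclic nucleotides, prostaglandins and nucleotide analogues. It is read by 1 probe, at chr14:118882104-118882163 of mm9 on the minus strand. Abcc4 read −2.28, −2.52 and −2.80 in P38α+/− and −2.24, −1.79 and −1.67 in P38α−/−. The genotypes did not overlap, but the lowest P38α−/− array was only just above the highest P38α+/− array. Both of these arrays carried replicate number 1, and the difference within the 3 pairs was 0.03, 0.73 and 1.12. The log2 difference was 0.63 (standard error 0.22, 95% interval 0.09 to 1.17, adjusted p = 0.195 in limma), which did not pass. It was positive under all 18 alternatives, from 0.48 to 1.11, counting those that could not move it.

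Abcc1 exports glutathione conjugates and leukotrienes. Its probe, at chr16:14474551-14474610 of mm9 on the plus strand, read −4.97, −4.51 and −4.75 in P38α+/− and −4.61, −4.39 and −4.61 in P38α−/−. The genotypes overlapped. The log2 difference was 0.21 (standard error 0.18, 95% interval −0.22 to 0.64). It was positive under all 18 alternatives, from 0.05 to 1.00, counting those that could not move it.

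Abcc5 exports cyclic nucleotides and has been linked to heme export. It is the only one of the 8 genes with 4 probes, all on the minus strand of chromosome 16 of mm9, and the array files assign them to 2 transcripts. Probe 1 (chr16:20331568-20331627) and probe 2 (chr16:20392789-20392848) are assigned to NM_013790. Probe 3 (chr16:20404654-20404713) and probe 4 (chr16:20400837-20400896) are assigned to NM_176839, described there as transcript variant 2. Probe 4 was detected in no mouse and was not tested.

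Probe 1 of Abcc5, spotted 10 times on each array, read −1.31, −1.42 and −1.80 in P38α+/− and −1.69, −1.69 and −1.78 in P38α−/−. Probe 2 read −2.83, −2.99 and −3.73 in P38α+/− and −3.60, −3.76 and −4.31 in P38α−/−. Probe 3 read −3.06, −3.43 and −3.97 in P38α+/− and −3.63, −3.65 and −3.71 in P38α−/−. All 3 probes overlapped between genotypes, and on each of them P38α+/− replicate 3 was the lowest P38α+/− array. The log2 differences were −0.21 (standard error 0.18), −0.71 (standard error 0.31) and −0.18 (standard error 0.25), with adjusted p-values of 0.535, 0.252 and 0.726 in limma. The sign of probe 1 turned to 0.27 and that of probe 3 to 0.30 with the percentile taken over all probes. The difference of probe 2 was negative under all 18 alternatives, from −1.04 to −0.23, counting those that could not move it. Probe 2 was lower in P38α−/− in each of the 3 pairs, by −0.77, −0.77 and −0.58. Within each array, probe 2 minus probe 3 was 0.23, 0.44 and 0.24 in P38α+/− and 0.03, −0.11 and −0.60 in P38α−/−. Probe 2 minus probe 1, which are assigned to the same transcript, was −1.52, −1.57 and −1.93 in P38α+/−. In P38α−/− it was −1.91, −2.07 and −2.53, so the genotypes overlapped, and their means differed by −0.50. For probe 3 minus probe 1 the means differed by 0.03. These within-array differences were described and not tested.

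Abcg2 exports porphyrins, urate and many drugs and is present on the red cell membrane. Its probe at chr6:58642312-58642371 of mm9, plus strand, has no stop codon in 1 of its forward frames.
Abcg2 (NM_011920): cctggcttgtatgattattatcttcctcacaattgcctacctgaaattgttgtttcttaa
Abcg2 read 3.43, 3.49 and 3.99 in P38α+/− and 3.20, 3.67 and 3.72 in P38α−/−. The genotypes overlapped, and the spread within each was wider than the difference between their means. The log2 difference was −0.11 (standard error 0.23, 95% interval −0.67 to 0.46), and relative to the median probe it was 0.05. Its sign turned under 5 of the 18 alternatives.

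Abcb6 moves porphyrins and has been placed at the mitochondrion, in endosomes and at the red cell surface. It was read by 1 probe at chr1:75168430-75168489 of mm9, minus strand. Abcb6 read 1.86, 1.53 and 1.71 in P38α+/− and 1.94, 1.47 and 1.65 in P38α−/−. The order of the replicate numbers was the same in both genotypes, and the genotypes overlapped over nearly their whole range. The log2 difference was −0.01 (standard error 0.19, 95% interval −0.46 to 0.44), the smallest in size among the 11 tested probes, and its sign turned under 8 of the 18 alternatives.

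Abcb10 is an inner mitochondrial membrane transporter that is induced as erythroid cells mature and binds the iron importer mitoferrin. Its probe at chr8:126476407-126476466 of mm9, minus strand, read 3.63, 3.53 and 3.75 in P38α+/− and 3.40, 3.49 and 3.50 in P38α−/−. All P38α−/− arrays were below all P38α+/− arrays, by a narrow gap. The log2 difference was −0.17 (standard error 0.14, 95% interval −0.52 to 0.17, adjusted p = 0.527 in limma). Relative to the median probe the difference of Abcb10 was −0.01, and its sign turned to 0.31 with the percentile taken over all probes.

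Abcb8 is a mitochondrial inner membrane transporter linked to iron export. Of its 3 probes, all on the plus strand of chromosome 5 of mm9, 2 are assigned to NM_029020 and 1 to a cDNA clone. Probe 1 (chr5:23915694-23915753) read −2.97, −2.84 and −3.18 in P38α+/− and −2.90, −3.12 and −3.58 in P38α−/−. Probe 2 (chr5:23913143-23913202) read −4.85, −5.48 and −5.11 in P38α+/− and −5.02, −5.19 and −5.51 in P38α−/−. The clone probe (probe 3) was detected in 1 P38α+/− mouse and no P38α−/− mouse and was not tested. Both tested probes overlapped between genotypes, with log2 differences of −0.20 (95% interval −0.73 to 0.33) and −0.10 (95% interval −0.64 to 0.45). The sign of probe 1 turned under 3 of the 18 alternatives and that of probe 2 under 8.

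**Figure D3:**
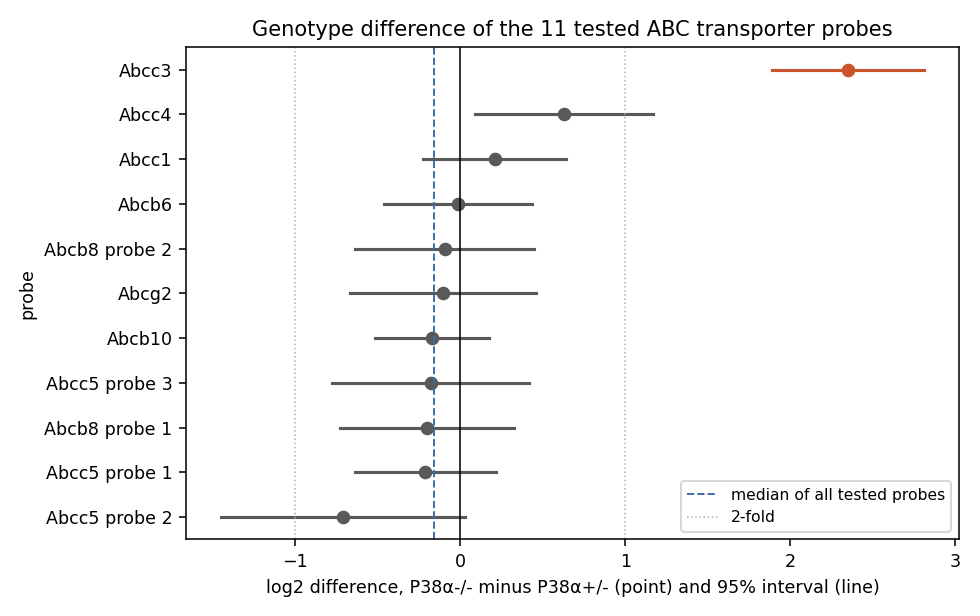
Log2 difference between genotypes, P38α−/− minus P38α+/− (x axis), of the 11 tested ABC transporter probes (y axis), with 95% intervals from limma as lines. The dashed line marks the median of all tested probes, −0.16, and the dotted lines a 2-fold change. Abcc3, at 2.35, is the only probe whose interval lies wholly above a 2-fold difference.

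Other ABC genes were taken as a list of 45, of which 17 were tested. The others were not detected in all 3 mice of either genotype, and among these, named after their values were seen, were the drug exporters Abcb1a, Abcb1b and Abcc2. None of the 17 was called in limma or in the methods' t-test with Benjamini-Hochberg adjustment, and 4 had an unadjusted p of at most 0.05 in limma, which 20% of all tested genes had. The median difference was 0.01, and 13 of the genes exceeded the median probe. Abca3, a lipid transporter, was 0.60 higher in P38α−/− (standard error 0.15, adjusted p = 0.122, limma), and Abcf3, a family member without membrane domains, was 0.47 higher (adjusted p = 0.213, limma), both without overlap. The sterol exporter Abcg1 had a difference of −1.34 (standard error 0.35, adjusted p = 0.135, limma) without overlap, and it was detected in 2 of the 3 P38α−/− mice. It shrank to −0.45 after quantile normalization and to −0.38 both with normexp background correction and in the authors' table. Without overlap, 2 of the 17 were higher and 1 lower, against 7.44% and 19.7% of all genes.

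Genes of heme synthesis, and carriers of heme, its precursors, iron or glycine across any membrane, formed a list of 20 with 18 tested. None was called in limma or in the methods' t-test, and 2 had an unadjusted p of at most 0.05 in limma, against 20% of all tested genes. The median difference was 0.03. Without overlap, 2 were higher and 2 lower, against 7.44% and 19.7% of all genes. Genotypes did not overlap for Slc48a1, a heme transporter, at 0.44 (standard error 0.14), and for Fech, which inserts iron into protoporphyrin, at 0.20 (standard error 0.14), both higher in P38α−/−. Slc25a40, a mitochondrial glutathione carrier, at −0.68 (standard error 0.23), and Pgrmc2, a heme chaperone, at −0.33 (standard error 0.15), were lower without overlap, although the sign of Pgrmc2 turned to 0.16 with the percentile taken over all probes. Slc25a40 shrank to −0.11 after quantile normalization, −0.20 with the percentile over all probes and −0.09 in the authors' table. The adjusted p-values of these 4 genes ran from 0.165 to 0.455 in limma.

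Glutathione genes, which make or conjugate the glutathione that Abcc1 and its relatives export with their substrates, formed a list of 20 with 15 tested. Ggct, which breaks down γ-glutamyl peptides, was called lower, but it passed the detection filter only through P38α+/−, where it was higher. It read −5.11, −5.24 and −5.26 in P38α+/− and −7.35, −6.73 and −7.18 in P38α−/− (adjusted p = 0.0421, limma). It was detected in no P38α−/− mouse. Set against the dimmest detected signal of those arrays, Ggct was at least 2.43-fold lower on this scale, and on some other scales the fall was smaller. The call did not hold up: it was lost under 14 of 17 alternatives, which gave differences from −2.06 to −0.36, and with the replicate number as a block its adjusted p was 0.0595 (limma). The transferases Gstk1, Gstt1 and Gstp1 were 1.33, 1.16 and 1.08 higher in P38α−/− without overlap (adjusted p = 0.0692, 0.111 and 0.114, limma), and none of them passed. Gstm1 and Mgst1 were lower without overlap, at −2.24 and −1.15 (adjusted p = 0.125 and 0.195, limma), and did not pass either. Over the 18 alternatives Gstk1 ranged from 0.73 to 1.87, Gstm1 from −3.13 to −1.32 and Mgst1 from −1.65 to −0.67. The median of the list was 0.15, and 10 of the 15 genes exceeded the median probe. An unadjusted p of at most 0.05 in limma was seen for 3 higher and 4 lower genes of the 15, against 20% of all tested genes. Without overlap, 4 were higher and 4 lower, against 7.44% and 19.7% of all genes.

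Transcription factors and sensors known to act on ABC transporter or erythroid genes formed a list of 15 with 9 tested. None was called in limma or in the methods' t-test, and 2 had an unadjusted p of at most 0.05 in limma, against 20% of all tested genes. Without overlap, 1 was higher and 1 lower, against 7.44% and 19.7% of all genes. Mafg, a partner of NF-E2 factors, was 0.45 higher in P38α−/− (standard error 0.17) and Arnt, a partner of the aryl hydrocarbon receptor, read −0.45 (standard error 0.14), both without overlap, although the sign of Arnt turned to 0.03 with the percentile taken over all probes. The median was −0.03.

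**Figure D4:**
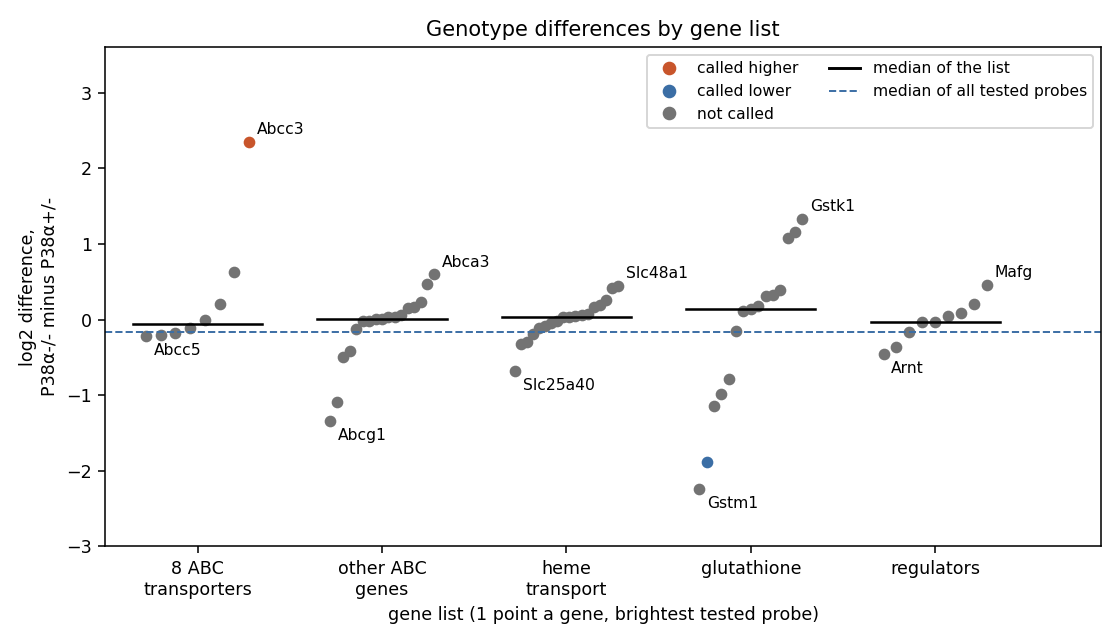
Log2 difference between genotypes, P38α−/− minus P38α+/− (y axis), by gene list (x axis), with 1 point per tested gene at its brightest probe. Black bars are list medians, from −0.06 to 0.15, the dashed line is the median of all tested probes, and coloured points were called. Abcc3 and Ggct are the only coloured points.

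The genes whose signal was most like that of Abcc3 over the 6 arrays, among 12014 genes with a probe detected in every mouse, were Klhl21, Capn10, Sfxn2, Arhgap39 and Armc9. Their Pearson correlations with Abcc3 were 0.993 to 0.995 (n = 6 arrays), and these arrays share their scaling and fall into the 2 genotypes. The 5 genes differed by 1.78, 1.00, 0.65, 0.53 and 0.90 on the log2 scale, all smaller than the 2.35 of Abcc3. Klhl21 is an adaptor of a cullin ubiquitin ligase, Capn10 a calpain protease and Sfxn2 a mitochondrial sideroflexin. Abcc4 stood at 0.775 and was number 972 of the 12014, and Abcb10 stood at −0.760.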

How the data were processed

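The authors deposited the intensity of every spot as Agilent Feature Extraction 10.7.3.1 wrote it, background-subtracted within the array, and a table of normalized intensities on a linear scale whose steps are not given in the sources used here. Outlier spots were left out, spots of a probe averaged, and log2 signals centred on the array's 75th percentile. The genotype contrast was fitted in R 4.3.3 with limma 3.58.1 (lmFit, then eBayes, two-sided), with Benjamini-Hochberg adjustment over 18785 probes. A gene was called if one of its probes was, and its listed value is that of its brightest tested probe. Members and lists were chosen with earlier results of these data known. Named genes were all members, Mapk14, every called list gene, the 3 highest and 3 lowest list genes without overlap, and the 5 genes most like Abcc3. The genes most like the member with the largest fall are not reported here. Symbols were updated through RefSeq accessions for 27509 of 55681 probes. In simulated data, 200 of 18780 probes were changed by a log2 difference of 2 or 3 in either direction. There limma called 159 probes, and 152 of those were right. It called 69 of the 103 probes changed by 2 and 83 of the 97 changed by 3, and with no change it called 0. The simulated noise was independent between probes and arrays, without pairs or slides, and smaller changes were not tried. Replicate numbers appear to pair the mice, and the series' design text speaks of pairs. Deviations from the genotype means correlated at 0.242 to 0.393 where the numbers matched and at no more than 0.061 where they did not. The matched and unmatched values are not independent, since the deviations within a genotype cancel out. Unless stated otherwise, the p-values, intervals and calls took no account of pairs. The fit with the replicate number as a block is given below. The number of arrays limits the precision. No array column was left unassigned.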

Additional observations from a re-analysis of the deposited data

How the results depend on the processing

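The arrays call 27 genes, 21 higher and 6 lower in P38α−/−, and the number differed under each alternative. It was 15 after quantile normalization (14 and 1), 730 with the percentile over all probes (405 and 325), 7 with spike-in centring (2 and 5), 12 with normexp background correction (12 and 0), 0 without a filter on dim probes, 64 with detection required on all 6 arrays (47 and 17), 11 in the authors' table (11 and 0), 0 with the slide as a block, 1674 with array weights (241 and 1433) and 2 in the methods' t-test. With the replicate number as a block it was 62 (15 and 47), and Abcc3 stayed called (adjusted p = 0.048, limma). Leaving out 1 array gave 310 genes without P38α+/− replicate 3 and 0 without any other single array. In the lists below, calls with 1 array left out also came only from the fit without P38α+/− replicate 3. Leaving out both arrays of replicate 1, chosen after seeing the data, gave 0. Of the 8 transporters, 0 were called with spike-in centring, no filter, the slide block, the t-test or without both arrays of replicate 1, 2 with array weights (Abcc3 and Abcc5), and 0 to 1 without 1 array. Of the glutathione genes, 5 were called with the percentile over all probes and with array weights, 0 under the other 10 settings, and 0 to 1 without 1 array. Of the other ABC genes, 2 were called with array weights (Abcg1 and Tap1) and 0 to 1 without 1 array, whereas the heme and regulator lists had 0 under every setting. The all-probe median moved from −0.16 to 0.06 (quantile and authors' table), 0.32 (percentile over all probes) and 0.01 (spike-in), and the median of the 11 transporter probes moved to 0.38 with the percentile over all probes.

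Signs of differences near 0 turned. With the percentile over all probes, differences that were negative became 0.31 for Abcb10, 0.47 for Abcb6, 0.28 and 0.39 for Abcb8 probes 1 and 2, 0.27 and 0.30 for Abcc5 probes 1 and 3, 0.38 for Abcg2, 0.0276 for Arnt and 0.16 for Pgrmc2. Quantile normalization gave 0.0784 and 0.72 for the Abcb8 probes and 0.14 for Abcc5 probe 3, and the authors' table gave 0.04, 0.76 and 0.21. In that table the column of P38α−/− replicate 2 follows its own scanner signal less closely (Spearman 0.898) than those of the other 5 arrays (1.00). Spike-in centring gave 0.16 for Abcb6, 0.0731 for Abcb8 probe 2 and 0.0616 for Abcg2. Abcb6 was 0.0417 and Abcb8 probe 2 was 0.0046 with normexp, 0.0073 and 0.037 with the slide block. Array weights gave 0.0346 for Abcb6 and 0.0786 for Abcg2. Abcc5 probe 3 was 0.059 without both arrays of replicate 1. Leaving out 1 array ranged from −0.11 to 0.10 for Abcb6, −0.26 to 0.0591 for Abcb8 probe 2, −0.42 to 0.0392 for Abcc5 probe 3 and −0.21 to 0.0912 for Abcg2. The cause was not tested. Detection from 28.9% to 53.1% of probes limits what can be said of dim genes.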
